A study of Arabidopsis thaliana with 12 samples.

Results

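Phytocytokines are small secreted peptides that plant cells cut from longer precursor proteins and that neighbouring cells perceive through receptor kinases at the plasma membrane. The Pep peptides, cut from PROPEP precursors, bind PEPR1 and PEPR2, and the PIP peptides, cut from prePIP precursors, bind RLK7. Both families amplify pattern-triggered immunity, the defence that starts when a cell senses a microbial molecule such as flg22, a peptide of bacterial flagellin. The RALF peptides bind FERONIA (FER), and RALF23 is known to dampen immune receptor complexes. The genes described here are 8 such precursors, chosen by name and locus out of the 23396 genes in the count table: PROPEP1 (AT5G64900), PROPEP2 (AT5G64890), PROPEP3 (AT5G64905), prePIP1 (AT4G28460), prePIP2 (AT4G37290), prePIP3 (AT2G23270), RALF23 (AT3G16570) and RALF33 (AT4G15800).

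RNA-seq was done on whole seedlings of wild-type Arabidopsis thaliana, accession Col-0, in 12 samples of 5 pooled seedlings each. All seedlings were 10 days old, had been kept in liquid medium overnight and were harvested after 1 h of treatment. The 4 groups of 3 samples were hypoxia with 100 nM flg22 (HF), hypoxia with water as mock (HM), normoxia with 100 nM flg22 (NF) and normoxia with mock (NM). Hypoxia was applied in anaerojars and normoxia was ambient oxygen. The comparisons address how each stress alone and their combination change transcript levels. The labels do not say whether replicates came from separate experiments, so p-values measure the spread between these samples.

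Total counts were between 21307650 and 21554050 per sample, and levels are given as CPM, normalised read counts relative to the TMM-scaled library size. A filter on low counts left 20074 genes, and edgeR's quasi-likelihood model was fitted to them over the 12 samples at once. A gene was called up- or downregulated (a DEG) at an adjusted p-value (Benjamini-Hochberg over all tested genes) under 0.05 and a fold change above 1.5. All 8 precursors were tested, although PROPEP2 and the 3 prePIP genes had only 0 to 9 counts in the 3 NM samples together and PROPEP3 had 31. These 5 genes passed the filter through the flg22-treated samples. The 5 shoot markers summed to between 22000 and 35400 CPM and the 7 root markers to between 167 and 309 CPM over the 12 samples, while the 3 flower and seed markers stayed between 0.45 and 4 CPM. In whole seedlings, fewer cells of a type and less RNA per cell cannot be told apart.

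The labels were checked on known response genes. The summed level of 5 hypoxia genes (ADH1, PDC1, LBD41, HRA1 and PCO1) was 1370 to 3810 CPM in HF and 485 to 1810 CPM in HM, against 70 to 201 CPM in NF and 35.2 to 54 CPM in NM. Of these 5, LBD41 alone was also upregulated by flg22 in normoxia (NF vs NM in edgeR, log2(FC) 2.16, adjusted p = 0.0489). It had 37.8, 155 and 52.7 CPM in NF and 21.6, 20.8 and 12.7 CPM in NM. The summed level of 3 flg22 response genes (FRK1, NHL10 and WRKY33) was 1440 to 1750 CPM in HF and 686 to 1880 CPM in NF, against 63 to 653 CPM in HM and 28.7 to 103 CPM in NM, most of it WRKY33. FRK1 did not separate the groups: it had 2.25, 11.6 and 17.7 CPM in HF, 2.53, 0.351 and 46.4 CPM in HM, 2.26, 20 and 65.5 CPM in NF and 0.377, 0.79 and 38.3 CPM in NM, and it was high in replicate 3 of HM, NF and NM. NHL10 was separated, with 44.9 to 61.6 CPM in HF and 48.4 to 80.4 CPM in NF, against 1.86 to 2.88 CPM in HM and 1.63 to 4.49 CPM in NM. HM replicate 1 stood apart from the other HM samples. WRKY33, a transcription factor gene of the flg22 response, was at 647 CPM there, against 60.8 and 165 CPM in HM replicates 2 and 3. All 5 hypoxia genes were also highest there among the HM samples. PDC1 was at 392 CPM, against 35.9 and 158 CPM, and LBD41 at 751 CPM, against 306 and 690 CPM. NHL10 was at 2.88 CPM there, against 1.86 and 2.02 CPM. What sets this sample apart was not tested. The calls, counts and medians of the precursors that rest on HM are given also without that sample.

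The genomic positions below are those of RefSeq on assembly TAIR10.1, whereas the submitters' processing notes name TAIR10. PROPEP2 (chr5:25934568-25935612), PROPEP1 (chr5:25937078-25938176) and PROPEP3 (chr5:25939562-25940080) lie in this order on the plus strand of chromosome 5, next to each other. PROPEP1 and PROPEP2 have 2 exons each and PROPEP3 has 1. prePIP1 (chr4:14065992-14066661, plus strand), prePIP2 (chr4:17549607-17550257, minus strand), prePIP3 (chr2:9903215-9903845, plus strand), RALF23 (chr3:5644593-5646557, plus strand) and RALF33 (chr4:8984787-8985995, plus strand) have a single exon each. RefSeq also places an antisense gene, AT4G06335, over the end of RALF33. Use of strand in the counting is not given in the sources used here, so reads from RALF33 and from that gene cannot be told apart.

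These stretches near the end of the coding sequence of the PROPEP and prePIP genes, where the peptides are encoded, are shown because the members of a family resemble each other there. RefSeq describes PROPEP1 as a precursor of 92 residues that yields a peptide of 23 residues, AtPep1, encoded by the 69 bases before the stop codon. The PROPEP2 and PROPEP3 stretches are the coding bases that align with it, and capitals mark the 30 bases that all 3 share.
PROPEP1, chr5:25937868-25937936: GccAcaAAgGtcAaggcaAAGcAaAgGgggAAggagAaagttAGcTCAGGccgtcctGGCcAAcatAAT
PROPEP2, chr5:25935235-25935303: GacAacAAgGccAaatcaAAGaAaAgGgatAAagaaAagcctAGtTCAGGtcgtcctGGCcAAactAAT
PROPEP3, chr5:25939853-25939921: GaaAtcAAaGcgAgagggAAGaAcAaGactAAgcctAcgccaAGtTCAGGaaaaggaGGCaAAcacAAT
The PROPEP2 stretch was identical to that of PROPEP1 at 73.9% of bases and the PROPEP3 stretch at 49.3%. For the prePIP genes the last 39 coding bases before the stop codon are shown, with the 21 bases that all 3 share in capitals.
prePIP1, chr4:14066260-14066298: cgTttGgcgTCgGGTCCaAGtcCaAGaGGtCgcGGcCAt
prePIP2, chr4:17549932-17549970, minus strand: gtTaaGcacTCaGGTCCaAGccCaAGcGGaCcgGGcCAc
prePIP3, chr2:9903530-9903568: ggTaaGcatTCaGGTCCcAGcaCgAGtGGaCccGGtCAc
The prePIP2 stretch was identical to that of prePIP1 at 64.1% of bases and the prePIP3 stretch at 59% of bases. Over whole exons, the longest run shared by any members of a family was 23 bases, between RALF23 and RALF33, which is shorter than the 100-base reads.

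By their level in NM and by the calls, the 8 genes fell into 2 sets. PROPEP1, PROPEP2, PROPEP3, prePIP1, prePIP2 and prePIP3 were near the detection limit or low in NM and were upregulated in HF and in NF against NM, PROPEP1 the least by fitted fold. RALF23 and RALF33 were well expressed in every sample, and of their comparisons only RALF33 in HF vs NM passed the cutoffs. Under flg22 alone these 2 genes moved in opposite directions, with NF above NM for RALF33 and below it for RALF23. Scaled by exon length, PROPEP3 had the highest mean level of the 8 in flg22-treated seedlings, at 225 CPM per kb in HF and 208 CPM per kb in NF, against 0.786 CPM per kb in NM. prePIP1 followed at 50.1 CPM per kb in HF, and the other members of its family reached 13 CPM per kb (prePIP2) and 7.84 CPM per kb (prePIP3) in HF. RALF33 had 46.2 CPM per kb in HF and 17.8 CPM per kb in NM, and RALF23 had 19.8 CPM per kb in HF and 24.2 CPM per kb in NM.

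**Figure D1:**
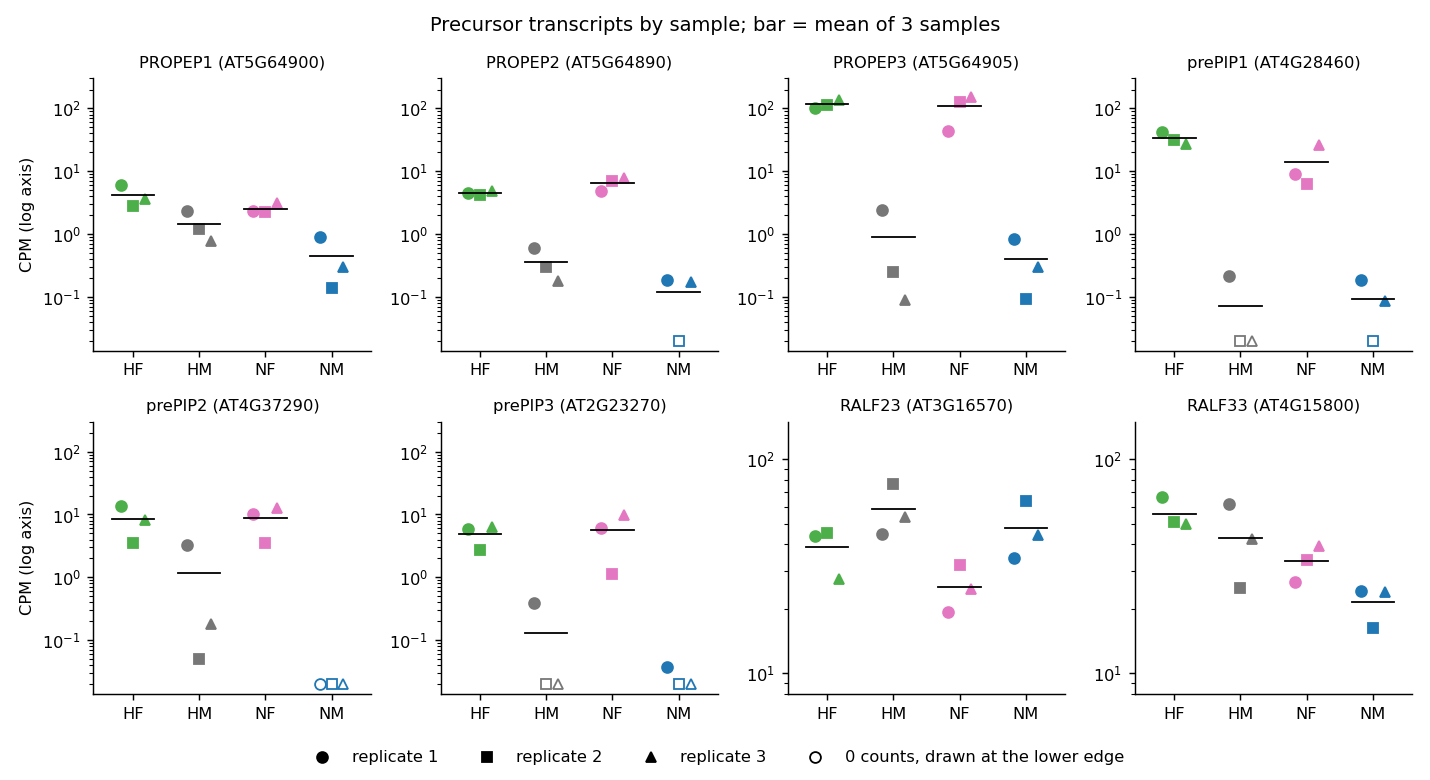
Level of each precursor gene in CPM (log axis) in the 12 samples, by group (HF, HM, NF, NM), with replicates 1 to 3 as circle, square and triangle and the group mean as a bar. Open symbols at the lower edge are samples with 0 counts. The PROPEP and prePIP genes lie higher in all HF and NF samples than in all NM samples, while RALF23 and RALF33, drawn on a narrower axis, stay between 16.3 and 76.8 CPM.

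PROPEP3 had 101, 115 and 135 CPM in HF, 2.4, 0.251 and 0.09 CPM in HM, 44.1, 126 and 153 CPM in NF and 0.83, 0.0929 and 0.302 CPM in NM. Every flg22-treated sample was above every mock-treated sample, and NF replicate 1 was the lowest of the flg22-treated samples. The log2(FC) was 8.09 (SE 1.08, adjusted p = 0.00173) for HF vs NM, a 273-fold difference, and 7.98 (SE 1.08, adjusted p = 0.00261) for NF vs NM, a 252-fold difference. In hypoxia, flg22 raised PROPEP3 125-fold (HF vs HM, adjusted p = 0.00931), a call that was lost without HM replicate 3 (adjusted p = 0.0508).

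PROPEP2 had 4.44, 4.25 and 4.94 CPM in HF, 0.601, 0.301 and 0.18 CPM in HM, 4.85, 6.96 and 7.92 CPM in NF and 0.189, 0 and 0.173 CPM in NM. The HF and NF samples were separated from all mock-treated samples, and HF overlapped with NF. PROPEP2 was upregulated 35.1-fold in HF vs NM (adjusted p = 0.00173), 50.7-fold in NF vs NM (adjusted p = 0.00216) and 12.3-fold in HF vs HM (adjusted p = 0.0123). The HF vs HM call was lost without HF replicate 3, HM replicate 2 or HM replicate 3 (adjusted p = 0.0503, 0.0658 and 0.0787).

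PROPEP1, which encodes the founding member of the Pep family, had smaller fitted folds. Its levels were 6.04, 2.78 and 3.6 CPM in HF, 2.32, 1.2 and 0.765 CPM in HM, 2.3, 2.22 and 3.15 CPM in NF and 0.906, 0.139 and 0.302 CPM in NM. HF was above HM and NM in every sample, whereas NF was above NM but overlapped with HM. PROPEP1 was upregulated 8.97-fold in HF vs NM (adjusted p = 0.00899) and 5.54-fold in NF vs NM (adjusted p = 0.0393). The NF vs NM call was lost, with adjusted p-values between 0.0509 and 0.156, when any of NF replicates 1, 2 and 3, NM replicates 2 and 3, HF replicate 3 or HM replicate 2 was left out, and with edgeR fitted on NF and NM alone (adjusted p = 0.103). The adjusted p was 0.00647 with the replicate number as a block. In HF vs HM the 2.89-fold difference did not pass the cutoffs (adjusted p = 0.205).

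Among the PIP precursors, prePIP1 had 42, 31.6 and 27.2 CPM in HF and 9.13, 6.24 and 26.4 CPM in NF. It had 0.215, 0 and 0 CPM in HM and 0.189, 0 and 0.0863 CPM in NM, which are 5 and 7 counts over each group. The flg22-treated samples were far above the mock-treated ones, and the HF samples were all above the NF samples, with 27.2 CPM as the lowest HF value and 26.4 CPM as the highest NF value. The log2(FC) was 8.36 (SE 0.94, adjusted p = 0.00162) in HF vs NM, 7.08 (SE 0.91, adjusted p = 0.00261) in NF vs NM and 8.69 (SE 0.97, adjusted p = 0.00482) in HF vs HM.

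prePIP2 had 13.7, 3.52 and 8.21 CPM in HF, 3.26, 0.0502 and 0.18 CPM in HM and 10.3, 3.51 and 12.8 CPM in NF, and no count in any NM sample. HF and NF overlapped, and HM replicate 1 lay close to the lowest flg22-treated samples. Set against 3 counts over the 3 NM samples together (0.0421 CPM), prePIP2 was at least 206-fold higher in HF and at least 215-fold higher in NF, and both differences passed the cutoffs (adjusted p = 0.0134 for HF vs NM and 0.0165 for NF vs NM). The NF vs NM adjusted p was 0.0535 without NM replicate 2 and 0.0532 without NM replicate 3. In HF vs HM the 7.17-fold difference was not called (adjusted p = 0.243), but without HM replicate 1 it was 68.6-fold and called (adjusted p = 0.00931). The 68.6-fold value rests on 5 counts in the other HM samples.

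prePIP3 had 5.79, 2.72 and 6.34 CPM in HF, 0.386, 0 and 0 CPM in HM, 6.01, 1.13 and 9.65 CPM in NF and 0.0377, 0 and 0 CPM in NM. The NM group held 1 count in all, and every HF and NF sample was above every mock-treated sample. The ratio of HF to NM was 360 with a 95% counting interval of 64.2 to 14300 (adjusted p = 0.00498), and the ratio of NF to NM was 405 with an interval of 72.2 to 16000 (adjusted p = 0.00542). These intervals cover counting error only. In HF vs HM the log2(FC) was 5.15 (SE 1.12, adjusted p = 0.0302). That call was lost without HF replicate 1, 2 or 3 or without HM replicate 2 or 3, with adjusted p-values between 0.0643 and 0.12 and with edgeR fitted on HF and HM alone (adjusted p = 0.0681). Without HM replicate 1 the HM group held no count of prePIP3, and HF was at least 71-fold higher, set against 3 counts over the other HM samples (adjusted p = 0.00765).

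The RALF genes had a measurable level in every group. RALF33 had 66.5, 50.8 and 50 CPM in HF, 61.5, 24.9 and 42.6 CPM in HM, 26.8, 33.7 and 39.4 CPM in NF and 24.3, 16.3 and 23.9 CPM in NM. Its NM samples were below all others, and its HF samples were above all NF samples but overlapped with HM. RALF33 was upregulated 2.59-fold in HF vs NM (log2(FC) 1.37, SE 0.31, adjusted p = 0.0149), while the 1.55-fold difference of NF vs NM did not pass (adjusted p = 0.345). The HF vs NM call was lost without HF replicate 1 (adjusted p = 0.0527) and without NM replicate 2 (adjusted p = 0.0661).

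RALF23 had 44, 45.1 and 27.6 CPM in HF, 44.9, 76.8 and 53.5 CPM in HM, 19.3, 32 and 24.7 CPM in NF and 34.7, 63.6 and 44.3 CPM in NM. It was the only one of the 8 with every NF sample below every NM sample, while HF overlapped with NM. The NF vs NM log2(FC) was -0.91 (SE 0.30) and did not pass (adjusted p = 0.12). The numbered replicates of NF and NM deviated together, and a fit blocked by replicate gave a log2(FC) of -0.89 that passed the cutoffs (adjusted p = 0.0147). The HF vs NM log2(FC) was -0.29 (SE 0.30, adjusted p = 0.694).

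Counted by comparison, flg22 alone (NF vs NM) upregulated 6 of the 8 precursors and downregulated none, where 6.43% of all tested genes were upregulated and 0.638% downregulated. The groups did not overlap for 7 genes that were higher in NF and 1 that was lower, against 12.3% and 9.22% of all tested genes. The combined treatment (HF vs NM) upregulated 7 of the 8 and downregulated none, where 7.85% of all tested genes were upregulated and 2.59% downregulated, and 7 had groups that did not overlap, against 14.8% of all genes higher in HF. For HF vs NM the median log2(FC) of the 8 genes was 6.56, or 6.41 with prePIP2 at its bound, against -0.05 for all tested genes. For NF vs NM it was 6.37, also with prePIP2 at its bound, against -0.03 for all tested genes. The 2 comparisons share the NM samples. PROPEP2, PROPEP3 and the prePIP genes passed the filter through the flg22-treated samples. The members were also chosen with earlier results of these data known. The counts and medians here and for HF vs HM therefore describe the 8 genes and do not test them against all genes. Upregulated genes made up 75.2% of all DEGs in HF vs NM and 91% in NF vs NM, or 46.2% and 75.2% when libraries were scaled by their total counts alone, and 87.6% or 60.9% in HF vs HM.

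**Figure D2:**
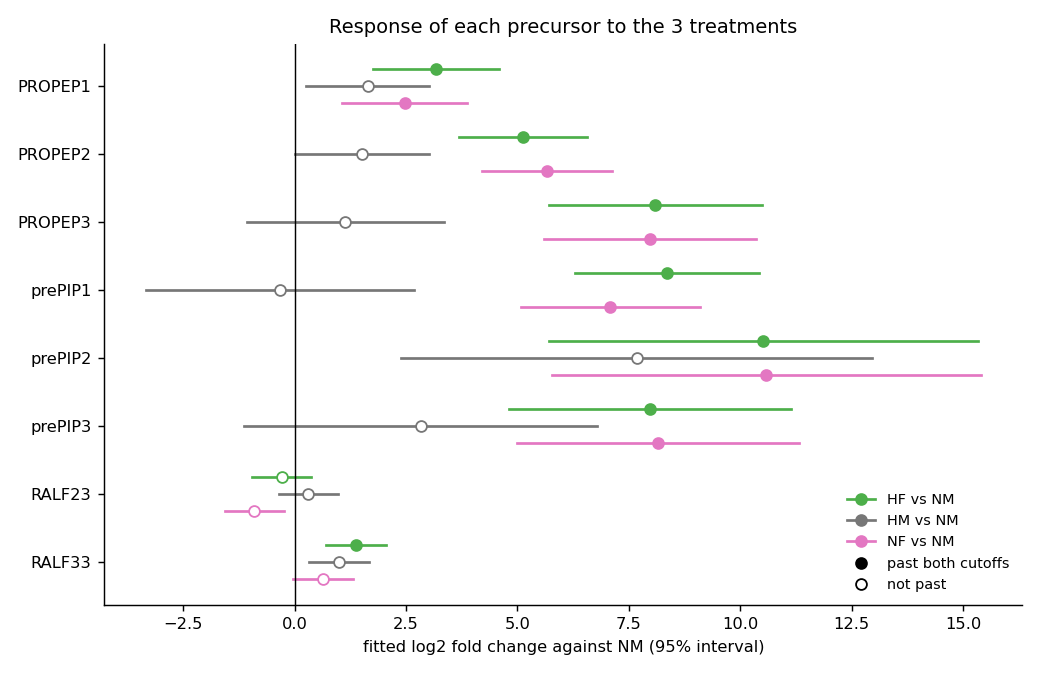
Fitted log2 fold change against NM (x axis) of each precursor gene in HF, HM and NF, with 95% intervals as lines and filled points for genes past both cutoffs. Filled points are 7 in HF, 0 in HM and 6 in NF, and the fitted values of prePIP2 have no counts in NM behind them and are not bounds.

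In hypoxic seedlings, flg22 (HF vs HM) upregulated PROPEP2, PROPEP3, prePIP1 and prePIP3, which is 4 of the 8, and downregulated none, where 3.84% of all tested genes were upregulated and 0.543% downregulated. The groups did not overlap for 6 genes higher in HF, against 12.1% of all tested genes. The median log2(FC) was 3.23 for the 8 genes and -0.02 for all tested genes, or 5.16 and 0 without HM replicate 1. This count depended on single HM and HF samples: it was 5 without HM replicate 1, 2 without HM replicate 2, 1 without HM replicate 3 and 2 without HF replicate 3. The number upregulated over all tested genes moved too, from 770 of 20074 with all samples. It was 1157 of 20354 without HM replicate 1 and 103 of 20366 without HM replicate 2. It was 34 of 20367 without HM replicate 3 and 105 of 20350 without HF replicate 3. Without HM replicate 3, prePIP1 alone was called. Without HM replicate 1 the fold was 676 for PROPEP3, 18.6 for PROPEP2 and 4.2 for PROPEP1 (adjusted p = 0.0957). These folds rest on 7, 10 and 41 counts in the other HM samples. prePIP1, which then had no count left in HM, was at least 472-fold higher in HF.

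Hypoxia alone (HM vs NM) changed no precursor past the cutoffs in edgeR, where 0% of all tested genes passed (166 genes passed with DESeq2 on all 12 samples). At an unadjusted p under 0.05 there were 3 of the 8 (PROPEP1, prePIP2 and RALF33) and 1191 of all tested genes. DESeq2 called 1 of the 8, prePIP2 (adjusted p = 0.00245), when fitted on all 12 samples, whereas fitted on those 2 groups it gave no adjusted p to prePIP2, PROPEP2, prePIP1 and prePIP3 and called none of the other 4. The HM and NM samples did not overlap for RALF33 and prePIP2, both higher in HM, against 5.54% of all tested genes. RALF33 was 2-fold higher in HM (log2(FC) 1, SE 0.30, unadjusted p = 0.00744, adjusted p = 0.583), or 1.57-fold without HM replicate 1. prePIP2 was at least 29.4-fold higher in HM, with 76 of its 81 counts in HM replicate 1, and at least 2.82-fold higher without that sample, from 5 counts. PROPEP1 was 3.11-fold higher in HM (adjusted p = 0.728), or 2.14-fold without HM replicate 1. The median log2(FC) of the 8 genes was 1.32, against 0.01 for all tested genes, and was 0.55, against 0, without HM replicate 1, or 0.65 without prePIP3 and with prePIP1 and prePIP2 at their bounds. PROPEP3 had a log2(FC) of 1.13, or -1.31 without HM replicate 1. All 9 counts of prePIP3 in HM were in HM replicate 1, so without it no fold can be given against the 1 count in NM. The 5 hypoxia genes used to check the labels did not pass in HM vs NM either (adjusted p between 0.0578 and 0.194), although all 5 had HM samples above all NM samples.

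Adding hypoxia to flg22 (HF vs NF) changed none of the 8 past the cutoffs, where 0% of all tested genes passed in edgeR and 110 passed with DESeq2 on all 12 samples. RALF33 was the only precursor at an unadjusted p under 0.05, among 992 of all tested genes, and both DESeq2 fits called none of the 8. RALF33 was 1.68-fold higher in HF (95% interval of the log2(FC) 0.08 to 1.41, unadjusted p = 0.0318, adjusted p = 0.921). prePIP1 was 2.42-fold higher in HF (95% interval of the log2(FC) -0.09 to 2.63, adjusted p = 0.996). These were the 2 precursors whose HF and NF samples did not overlap, against 5.08% of all tested genes. The intervals of the others allow changes in either direction: the log2(FC) was 0.12 for PROPEP3 (-1.56 to 1.79), -0.53 for PROPEP2 (-1.63 to 0.57) and 0.70 for PROPEP1 (-0.58 to 1.97). It was -0.06 for prePIP2 (-2.43 to 2.30), -0.18 for prePIP3 (-2.06 to 1.71) and 0.62 for RALF23 (-0.04 to 1.28). The median log2(FC) was 0.37 for the 8 genes and -0.01 for all tested genes.

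**Figure D3:**
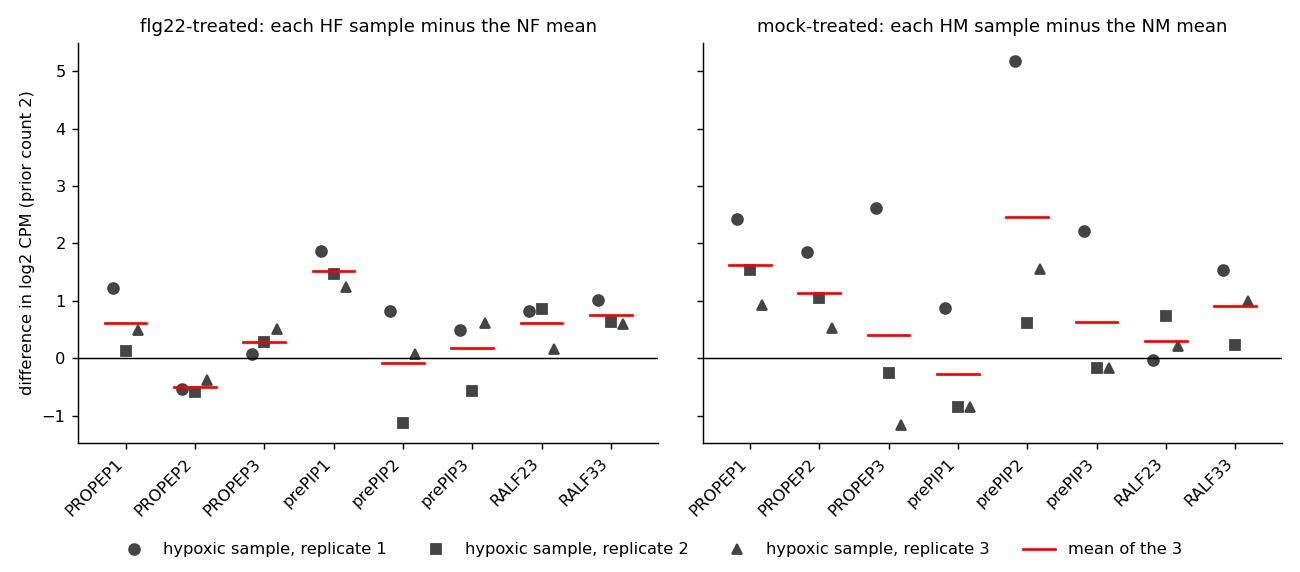
Difference in log2 CPM (prior count 2) of each hypoxic sample from the mean of the normoxic group with the same flg22 state, for flg22-treated samples (left, HF minus NF) and mock-treated samples (right, HM minus NM). Symbols are replicates and the red bar is the mean of the 3; HM replicate 1 lies 5.18 above the NM mean for prePIP2 and 2.62 above it for PROPEP3, and all 3 HF samples of PROPEP2 lie below the NF mean.

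Whether the flg22 response differed between hypoxia and normoxia was tested directly as (HF - HM) - (NF - NM). No precursor passed in edgeR, and neither did any other gene (0%), nor did any in DESeq2, with edgeR's adjusted p = 1 for all 8 and 227 of all tested genes at an unadjusted p under 0.05. PROPEP2 had an interaction log2(FC) of -2.04 (SE 0.84, unadjusted p = 0.0347) and was, with prePIP2, among those 227, but had -1.44 (SE 0.86, unadjusted p = 0.124) without HM replicate 1. prePIP2 had -7.74 (SE 2.70, unadjusted p = 0.0188), a value fitted with 0 counts in NM. Without HM replicate 1 it had -4.47 (SE 2.05, unadjusted p = 0.0607). RALF23 had 0.32 (SE 0.42) and RALF33 had -0.25 (SE 0.43), or 0.16 and 0.10 without HM replicate 1. PROPEP3 had -1.02 (SE 1.25), or 1.42 without HM replicate 1.

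The stretch upstream of each gene was searched for the core of the W-box, the element that WRKY transcription factors bind, written TTGAC on either strand (GTCAA on the other). In the 250 bases upstream of the RefSeq start, PROPEP3 held 4 copies, PROPEP2 held 3, PROPEP1, prePIP1, prePIP3 and RALF33 held 2 each, prePIP2 held 1 and RALF23 held none. At least 1 copy stood in 7 of the 8, against 44.9% of the 27443 protein-coding genes, and 3 or more copies stood in 2 of the 8, against 3.38%. A match is a description of the letters and not a bound site. The windows of PROPEP3 and PROPEP2 with most copies, of prePIP1, which had the highest HF level of its family, and of RALF23 with none are shown with each core in capitals, 5′ to 3′ on the strand of the gene.
PROPEP3, chr5:25939312-25939561, plus strand: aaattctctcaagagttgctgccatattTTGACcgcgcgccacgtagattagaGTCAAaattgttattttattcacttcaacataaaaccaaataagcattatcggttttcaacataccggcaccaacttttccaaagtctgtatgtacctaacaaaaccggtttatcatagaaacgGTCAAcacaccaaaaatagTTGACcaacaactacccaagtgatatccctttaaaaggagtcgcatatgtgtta
PROPEP2, chr5:25934318-25934567, plus strand: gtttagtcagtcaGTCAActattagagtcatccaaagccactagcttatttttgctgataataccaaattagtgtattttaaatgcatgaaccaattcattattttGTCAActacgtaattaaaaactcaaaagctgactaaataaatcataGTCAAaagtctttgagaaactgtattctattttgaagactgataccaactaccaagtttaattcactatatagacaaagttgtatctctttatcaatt
prePIP1, chr4:14065742-14065991, plus strand: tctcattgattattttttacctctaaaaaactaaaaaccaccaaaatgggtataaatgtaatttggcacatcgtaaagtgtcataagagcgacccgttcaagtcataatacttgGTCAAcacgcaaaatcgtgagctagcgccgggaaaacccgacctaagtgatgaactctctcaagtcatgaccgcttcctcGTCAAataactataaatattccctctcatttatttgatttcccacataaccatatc
RALF23, chr3:5644343-5644592, plus strand: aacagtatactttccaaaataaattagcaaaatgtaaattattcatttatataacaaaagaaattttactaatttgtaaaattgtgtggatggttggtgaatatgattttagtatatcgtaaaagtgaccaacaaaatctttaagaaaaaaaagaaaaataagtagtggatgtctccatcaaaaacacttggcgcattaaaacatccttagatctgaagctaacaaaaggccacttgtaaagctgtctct
In PROPEP3, 2 of the cores read TTGAC on the strand of the gene and 2 read GTCAA, whereas all cores of PROPEP2 and prePIP1 read GTCAA.

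The response was also measured in other precursors. Of 17 further precursors of the PROPEP, RALF, IDA-like, PSK, PSY and SCOOP families, 16 were tested, of which 2 were upregulated in NF vs NM, 5 in HF vs NM and 1 in HF vs HM, and none was downregulated. Over all tested genes the shares upregulated were 6.43% in NF vs NM, 7.85% in HF vs NM and 3.84% in HF vs HM, so that 1 or 2 of 16 is near the share of all genes. Without HM replicate 1, 2 of the 16 were upregulated in HF vs HM, where 1157 of 20354 tested genes were. AT5G05300 had a log2(FC) of 6.30 in HF vs NM (adjusted p = 0.00317) and 5.99 in NF vs NM (adjusted p = 0.00464). AT3G10930 had 4.48 in HF vs NM (adjusted p = 0.00354) and 3.52 in NF vs NM (adjusted p = 0.0126). PROPEP4, a further Pep precursor, was upregulated in HF vs NM (log2(FC) 2.06, adjusted p = 0.0264), as were RALF22 (1.51, adjusted p = 0.0391) and PSK4, a phytosulfokine precursor (1.55, adjusted p = 0.0388). Their NF vs NM values were 0.82 for PROPEP4, 0.54 for RALF22 and 0.92 for PSK4, and none of the 3 passed there. Whether they differed between HF and NF was tested, and the log2(FC) of 1.25 for PROPEP4, 0.96 for RALF22 and 0.63 for PSK4 did not pass (adjusted p = 0.912, 0.963 and 0.996).

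Several receptors of these peptides were upregulated too. Of 9 receptors and co-receptors, 5 were upregulated in NF vs NM, 6 in HF vs NM and 4 in HF vs HM, where 6.43%, 7.85% and 3.84% of all tested genes were. Without HM replicate 1, 5 were upregulated in HF vs HM, with PEPR2 and LLG1 gained and AT4G08850 lost. In that fit 1157 of 20354 tested genes were upregulated. PEPR1, the main Pep receptor, had a log2(FC) of 2.54 in HF vs NM (adjusted p = 0.00189) and 2.56 in NF vs NM (adjusted p = 0.00261). RLK7, the PIP receptor, had 1.26 in HF vs NM (adjusted p = 0.00679) and 1.29 in NF vs NM (adjusted p = 0.00765). The co-receptors BAK1 and BKK1 had 1.89 and 2.89 in HF vs NM (adjusted p = 0.00173 and 0.00359). FER, the RALF receptor, was not called (0.47 in HF vs NM, adjusted p = 0.0894, and 0.05 in NF vs NM, adjusted p = 0.962), while its partner LLG1 was upregulated in HF vs NM (0.97, adjusted p = 0.0138). FLS2, the flg22 receptor, had a log2(FC) of -1.02 in HF vs NF that did not pass (SE 0.24, unadjusted p = 0.00149, adjusted p = 0.361). Its HF samples (34.6 to 47.4 CPM) were all below its NF samples (79.3 to 99 CPM). In that comparison 0% of all tested genes passed in edgeR.

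**Figure D4:**
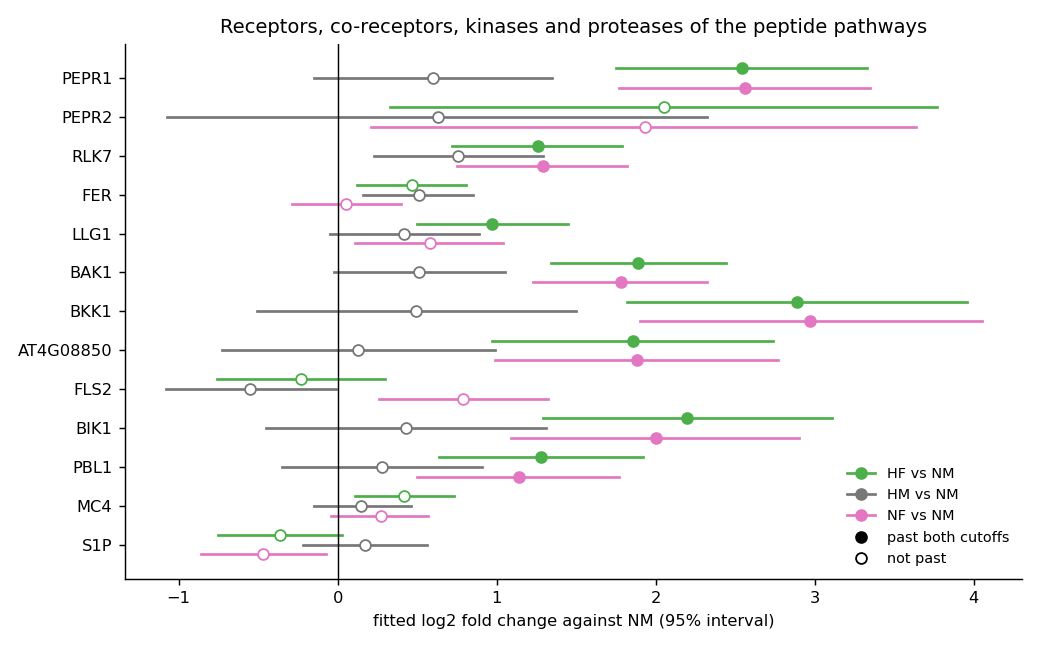
Fitted log2 fold change against NM (x axis) of 9 receptors and co-receptors, 2 kinases and 2 proteases of the peptide pathways in HF, HM and NF, with 95% intervals as lines and filled points for genes past both cutoffs. PEPR1, RLK7, BAK1, BKK1, AT4G08850, BIK1 and PBL1 are filled in HF and NF, LLG1 in HF, and no gene is filled in HM.

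Of the kinases that relay the signal, BIK1 was upregulated in HF vs NM (log2(FC) 2.20, adjusted p = 0.0061) and NF vs NM (2, adjusted p = 0.0123), and PBL1 in HF vs NM (1.28, adjusted p = 0.0159) and NF vs NM (1.14, adjusted p = 0.0374). The genes for the proteases that process precursors were not called: MC4, a metacaspase that cuts PROPEP1, had 0.42 in HF vs NM (adjusted p = 0.0859), and S1P, a subtilase that cuts the RALF23 precursor, had -0.36 (adjusted p = 0.273).

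As a description of likeness, the tested genes (18454 with a mean of at least 1 CPM) were ranked by Pearson's r of log2 CPM with each precursor over the 12 samples, which share the 4 treatments. The genes most like PROPEP3 were MLO6 (r = 0.997), at 228 CPM in HF, 7.29 CPM in HM, 262 CPM in NF and 4.93 CPM in NM, and CYP82C3 (r = 0.996). PROPEP2 was most like AT1G68390 (r = 0.994) and BAP2 (r = 0.988), and PROPEP1 most like AT3G24530 (r = 0.955) and AT5G28610 (r = 0.951). The nearest genes to prePIP1 were AT1G06135 (r = 0.99) and AT1G14550 (r = 0.986), to prePIP2 CAMBP25 (r = 0.987) and CML37 (r = 0.983), and to prePIP3 CYP715A1 (r = 0.988) and AT4G04480 (r = 0.978). RALF33 was nearest to AT2G27080 (r = 0.978) and AT4G30370 (r = 0.955). RALF23 was nearest to PP2-A13 (r = 0.98), at 98.3 CPM in HF, 222 CPM in HM, 45.8 CPM in NF and 158 CPM in NM, and to PMI1 (r = 0.967). The order of its levels, HM, NM, HF and NF from high to low, stood in these genes too. They were picked for likeness over the same samples, so the shared order is no separate support for it.

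The order of the mean levels differed among the genes, also within a family. For PROPEP2, prePIP2 and prePIP3 it was NF, HF, HM and NM from high to low, and for PROPEP1 and PROPEP3 it was HF, NF, HM and NM. For prePIP1 it was HF, NF, NM and HM, and for RALF33 HF, HM, NF and NM. Of neighbours in these orders, HF and NF did not differ past the cutoffs for any of the PROPEP and prePIP genes. Neither did HM and NM, whereas NF and HM were not compared. For prePIP1 the neighbours NF and NM were compared and differed past the cutoffs in edgeR (log2(FC) 7.08, adjusted p = 0.00261). For RALF23 and RALF33 no neighbours that were compared differed past the cutoffs.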

How the data were processed

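The authors filtered paired-end reads, aligned them with HISAT (genome build TAIR10, per the submitters' processing notes) and deposited expected counts per gene for 23396 genes in 12 samples; the counting tool and its use of strand are not given in the sources used here. The deposited table also holds 4 columns of group means, which were not used. Expected counts were rounded, since 2.3% were not whole, although the tests had been planned for whole counts; the values of the 8 precursors were whole. Samples were grouped by their labels.

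Counts were scaled by TMM (factors 0.828 to 1.23), kept with filterByExpr (minimum count 10) and tested in edgeR 4.0.16 (quasi-likelihood F-test; R 4.3.3) with 4 group means and no block, a fit that was tested on simulated data. The biological coefficient of variation was 0.362. Replicates of a group differed by more than sampling noise, so none was counted as a duplicate. DESeq2 1.42.0, other scaling, filters and samples, and a replicate block were alternatives, and medians, bounds and listed genes without HM replicate 1 were added after the data were seen. Same-numbered samples deviated together (r = 0.772, 0.502 and 0.314 for NF and NM; 0.681, 0.595 and 0.264 for HM and NM). Folds against a group at 0 used 3 counts over that group.

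All 8 precursors were named, with listed genes past the cutoffs and the 2 genes of highest r per precursor; FER, FLS2, MC4 and S1P were added after their values were seen. Members and lists were chosen with earlier results of these data known. All 23396 gene IDs matched RefSeq; sequences came from RefSeq TAIR10.1, and figures from Python 3.11.15 with matplotlib 3.10.9.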

Additional observations from a re-analysis of the deposited data

Results flagged for a closer look

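The mean differences of PROPEP2 between hypoxia and normoxia had opposite signs in the 2 flg22 states, but neither passed the cutoffs (edgeR's quasi-likelihood test, adjusted p = 0.996 for HF vs NF and 0.841 for HM vs NM) and both pairs of groups overlapped in CPM. All 3 HF samples lay below the NF mean, by 0.38 to 0.59 in log2 CPM, with a mean difference of -0.50, and all 3 HM samples lay above the NM mean, by 0.52 to 1.86, with a mean of 1.14. The difference between these effects was -1.64, and the interaction test gave a log2(FC) of -2.04 that did not pass (edgeR's quasi-likelihood test, adjusted p = 1). The HM and NM levels rest on 24 and 9 counts.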

How the results depend on the processing

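Each result was recomputed with other tools, scaling, filters, fits and with each sample left out. Of the log2(FC) values of a precursor under an alternative, 843 kept their direction and side of the threshold, 24 lost a call, 5 gained one and 15 changed sign, while 4 had no adjusted p (HM vs NM, DESeq2 on those groups). The number of precursors called in HM vs NM was 0, or 1 with DESeq2 on all samples. With edgeR fitted on HM and NM alone, only PROPEP1, RALF23 and RALF33 passed the filter on low counts. The other precursors were not tested in that fit and have no value from it in the tally. Leaving out 1 sample at a time gave 1 to 5 called in HF vs HM, 4 to 6 in NF vs NM and 6 to 7 for HF vs NM. Over all tested genes, the same fits called 35 to 1532 in HF vs HM, 859 to 1570 in NF vs NM and 1367 to 2199 in HF vs NM.

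Most sign changes came from leaving out 1 sample, in values that had not passed. The leave-one-out ranges of the log2(FC) in HM vs NM were -1.31 to 2.19 for PROPEP3, -1.76 to 4.57 for prePIP3 and -4.14 to 0.69 for prePIP1. In HF vs NF they were -0.26 to 0.46 for PROPEP3, -0.60 to 0.30 for prePIP2 and -0.66 to 0.47 for prePIP3, whose value was 0.11 with the replicate block. For the interaction they were -2.07 to 1.42 for PROPEP3, -4.75 to 1.59 for prePIP3 and -0.53 to 0.10 for RALF33. Without HM replicate 1 there are no HM counts of prePIP1 and prePIP3, so the ends that come from leaving it out are fits against 0 counts. A fit of prePIP3 against NM without NM replicate 1 is one too, since no other NM sample held a count. The upper end of 4.57 in HM vs NM is such a fit. The cause of the other changes was not tested.

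With the replicate block, 5 precursors were called in HF vs HM (adding prePIP2, adjusted p = 0.0359), 7 in HF vs NM, 7 in NF vs NM (adding RALF23) and 0 in HM vs NM, HF vs NF and the interaction. Same-numbered HF samples did not all deviate with NM, NF or HM (lowest r = -0.00892, -0.111 and -0.0471), so the block is not a paired design there. Without TMM scaling the median log2(FC) of all genes in HF vs NM moved from -0.05 to -0.32, a shift of -0.27, and the shifts were -0.12 to -0.15 in the other comparisons against a group. RALF33 (HF vs NM) and PROPEP1 (NF vs NM) then missed the threshold (adjusted p = 0.0612 and 0.0828), and RALF23 in NF vs NM passed it (adjusted p = 0.0175).

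Over all genes, edgeR without a block and with it called 2095 and 3362 genes in HF vs NM, 879 and 1915 in HF vs HM, 1419 and 2315 in NF vs NM, 0 and 13 in HM vs NM and 0 and 21 in HF vs NF. DESeq2, fitted to the 12 samples or to each pair of groups, called 1694 or 1422 in HF vs HM, 166 or 151 in HM vs NM and 110 or 144 in HF vs NF, and edgeR on the groups compared called 290 in HF vs HM. Low counts in mock-treated samples limit the folds of the prePIP genes and PROPEP2, and that of PROPEP3 in HF vs HM without HM replicate 1.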
